A study of Mus musculus with 20 samples.

Results

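The response of the liver to benzbromarone (BBR) was compared between obese mice that carried a control vector and obese mice in which PPARγ was knocked down. The quantity of interest was the interaction, (shRNA+BBR − shRNA) − (Vec+BBR − Vec), on the log2 scale. A value above 0 means that BBR shifted a gene upward more, or downward less, in the knockdown livers than in the control-vector livers. The comparison used all 20 of the 20 libraries of the series, 5 in each of 4 groups, assigned by the treatment label of each sample. The 2 simple responses whose difference it is rested on 10 libraries each and are given only beside it.

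The animals were Lepr db/db males, whose leptin receptor is defective, so that they overeat and grow obese and diabetic. At 5 weeks of age all 4 groups were injected with AAV8 by the tail vein, and all fasted for 6 h before the liver was taken. The Vec group, labelled control, received a vector with a non-targeting shRNA and the vehicle, CMC-Na. The Vec+BBR group received the same vector and BBR, a uricosuric drug for gout, at 25 mg/kg by gavage each day for 4 weeks. The shRNA group, labelled PPAR knockdown, received a vector with 4 hairpins against Pparg and the vehicle. The shRNA+BBR group received this vector and the same course of BBR. AAV8 mainly transduces hepatocytes, and the labels do not say which other liver cells carried the hairpins. The promoter that drives the hairpins was not given in the sources used here. The sample titles number 1 to 5 within each group and do not name the animals, so the p-values measure the spread between these samples.

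PPARγ is a nuclear receptor that pairs with RXR and drives lipid uptake and storage, above all in fat but also in the steatotic liver. Hepatocytes divide their labour along the lobule. Pericentral cells, under Wnt signals from the central vein endothelium, hold glutamine synthesis and drug oxidation, and periportal cells hold urea synthesis and gluconeogenesis. Few hepatocytes cycle in the adult liver, and those that do switch on DNA replication genes in S phase and then the mitotic kinases, cyclins and spindle proteins. Interferons act through receptors, JAK kinases and STAT factors. Type I interferon induces antiviral effectors, and interferon-γ, made by T and NK cells, induces the guanylate-binding proteins, immunity-related GTPases and antigen presentation. Sinusoidal endothelial cells line the capillaries of the lobule, scavenge waste through stabilins and supply BMP, Wnt and other angiocrine signals to hepatocytes.

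The hairpins are shown because they define the difference between the vectors. Capitals mark the 21 bases identical to Pparg mRNA, and the lower case gives the loop, the complementary arm and the terminator.
shRNA1 against exon 3: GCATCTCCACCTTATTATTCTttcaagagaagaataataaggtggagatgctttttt
shRNA2 against exons 4 and 5: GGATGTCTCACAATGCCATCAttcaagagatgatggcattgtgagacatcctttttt
shRNA3 against exon 5: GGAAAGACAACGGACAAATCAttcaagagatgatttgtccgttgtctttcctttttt
shRNA4 against exon 6: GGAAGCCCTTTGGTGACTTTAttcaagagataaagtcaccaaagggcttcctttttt
All 4 target sites lie in coding sequence of Pparg on the plus strand of chromosome 6 (GRCm38, the assembly of mm10). The site of shRNA1 is chr6:115441512-115441532 in exon 3 of the 7 exons of a coding transcript. The site of shRNA2 spans a splice junction, with 15 bases at chr6:115451068-115451082 in exon 4 and 6 bases at chr6:115463086-115463091 in exon 5. The sites of shRNA3, chr6:115463265-115463285, and shRNA4, chr6:115473195-115473215, are in exons 5 and 6. Of 5 protein-coding transcripts annotated, shRNA1 matched 5, shRNA2 4, and shRNA3 and shRNA4 3 each.

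Levels are given as CPM, counts scaled to a common library size after TMM normalisation. Pparg was 16.4, 20.1, 35.9, 19.4 and 32.1 CPM in Vec livers and 34.8, 29.8, 28.0, 28.1 and 38.3 CPM in Vec+BBR livers. It was 7.31, 6.53, 5.96, 3.24 and 5.63 CPM in shRNA livers and 11.4, 9.99, 21.8, 18.9 and 7.19 CPM in shRNA+BBR livers. Every shRNA library was below every Vec library, so the knockdown matched the labels, whereas the highest shRNA+BBR libraries overlapped the Vec range. BBR raised Pparg in shRNA livers (log2 1.28 ± 0.28 SE, adjusted p = 0.00773). In Vec livers its estimate was 0.36 ± 0.26 (adjusted p = 0.372). The interaction of Pparg, 0.92 ± 0.38, did not pass the adjusted threshold (adjusted p = 0.208). Mean levels in Vec and shRNA livers were 24.8 ± 8.63 and 5.73 ± 1.53 CPM under vehicle and 31.8 ± 4.57 and 13.9 ± 6.22 CPM under BBR (SD, n = 5). Among 12 typical PPARγ target genes, BBR raised 9 in Vec livers and 8 in shRNA livers at an adjusted p under 0.05. The shares of all genes raised were 7.58% and 8.37%. The median interaction of the 12 was 0.03, and none passed the adjusted threshold for the interaction. Their mean log2 CPM averaged 3.55 in Vec, 5.42 in Vec+BBR, 3.16 in shRNA and 4.91 in shRNA+BBR livers.

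The 20 libraries held 17432904 to 25024099 counts (median 21409859.5) and 14266 to 15072 detected genes, and 12342 genes were tested. The 10 most abundant genes took 23% to 29.7% of counts, and mitochondrial genes 9.14% to 16.22%. Replicates 2, 3 and 4 of shRNA+BBR had the highest shares of the 10 most abundant genes (28.9%, 29% and 29.7%, beside at most 27.5% in the other libraries). Their mitochondrial shares were 16.22%, 14.56% and 12.72%, beside at most 13.79% in the others. The labelled tissue carried hepatocyte secreted proteins at 125000 to 154000 summed CPM in each library, whereas 7 of 8 exocrine pancreas markers never exceeded 3 counts in a library. No pair of libraries within a group agreed within sampling noise.

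The interaction was spread over many genes at small size. At an adjusted p under 0.05, 18 genes differed, 0.146% of those tested, 9 higher (0.0729%) and 9 lower (0.0729%). At an unadjusted p under 0.05, 1208 genes (9.79%) were higher and 1073 (8.69%) were lower. The median over all genes was 0.01 and the interquartile range was −0.21 to 0.25. BBR itself changed 1908 genes (15.5%) in Vec livers and 1932 (15.7%) in shRNA livers at an adjusted p under 0.05, and 30.2% and 33.2% of genes at an unadjusted p under 0.05. Across the 12342 genes the 2 responses had a Spearman correlation of 0.39, given as a description. The programmes below are described by their medians and counts beside these shares.

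The genes past the adjusted threshold included members of the cell cycle and pericentral lists. Cdk1, Tk1 and Ccnd3 are cell cycle genes and Tbx3 is a Wnt-dependent pericentral transcription factor. Ifitm2, an interferon-inducible membrane protein, is on none of the lists, and no member of the interferon lists passed. Pkdcc, a secreted tyrosine kinase, had the smallest p of all genes (interaction 1.14 ± 0.15, adjusted p = 0.00284). It was 16.2, 19.0, 14.3, 16.9 and 13.4 CPM in Vec and 11.3, 9.81, 9.56, 8.61 and 9.32 CPM in Vec+BBR livers. It was 9.05, 9.60, 11.6, 10.9 and 11.9 CPM in shRNA and 12.8, 14, 15.9, 13.1 and 15.7 CPM in shRNA+BBR livers. BBR thus lowered Pkdcc in Vec livers and raised it in shRNA livers, with no overlap within either pair of groups. The other higher genes were Nat8 (1.59), Sult2a8 (1.98) and Mup21 (1.73), a hepatic acetyltransferase, a sulfotransferase and a major urinary protein of families with near-identical copies among which reads can be divided uncertainly. The lower genes were Treh (−1.36), which encodes trehalase, Golph3l (−0.84), Akap7 (−1.12), Krcc1 (−0.57), Arhgef7 (−0.84), Cdkl2 (−1.24), 5330417C22Rik (−2.64), Creb3l2 (−0.97) and Smoc2 (−1.92).

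**Figure D1:**
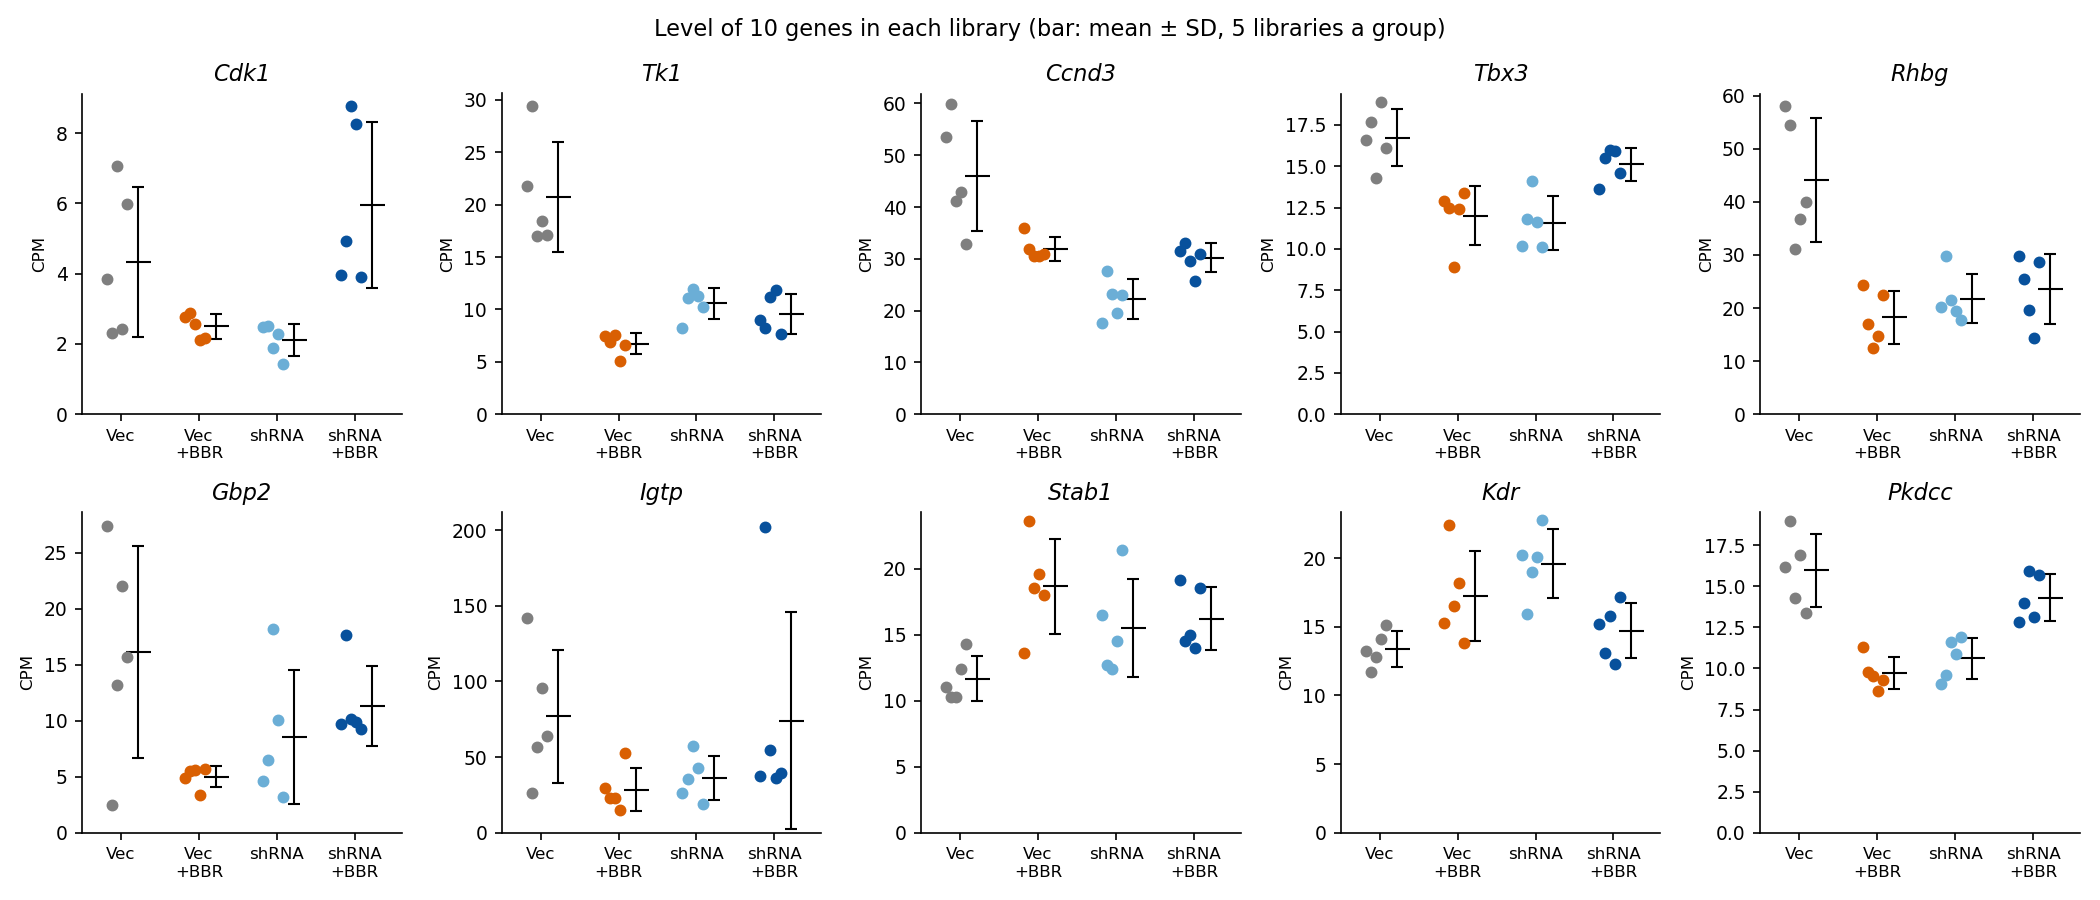
Levels of 10 genes in CPM on linear axes from 0, 1 point per library and a bar for the mean ± SD of 5 libraries. Cdk1 was higher in all 5 shRNA+BBR libraries than in any shRNA library, Tk1 was highest in the Vec group, and Stab1 was lowest in the Vec group by its mean of 11.7 CPM.

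The median response of cell cycle genes to BBR had opposite signs under the 2 vectors. The median interaction of the 44 tested G2 phase and mitosis genes was 1.26, with 26 higher and 0 lower at an unadjusted p under 0.05. For the 49 DNA replication and S phase genes the median was 0.68, with 27 higher and 0 lower. BBR shifted the mitotic list by a median of −0.62 in Vec livers, where 3 members fell and 0 rose at an adjusted p under 0.05, and by 0.85 in shRNA livers, where 10 rose and 0 fell. The replication list shifted by −0.32 in Vec livers, with 6 members lower, and by 0.33 in shRNA livers, with 4 members higher. The background for these calls was 7.88% lower and 7.58% higher among all genes in Vec livers, and 7.28% lower and 8.37% higher in shRNA livers. The 3 lower mitotic genes in Vec livers and the 4 higher replication genes in shRNA livers did not exceed these shares. Here and below, counts of list members that rose or fell with BBR are at an adjusted p under 0.05.

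Cdk1, the kinase that drives entry into mitosis (ENSMUSG00000019942, chr10:69335146-69352938, minus strand), was 3.86, 2.31, 7.06, 2.43 and 5.98 CPM in Vec livers and 2.78, 2.87, 2.57, 2.10 and 2.17 CPM in Vec+BBR livers. It was 2.47, 2.51, 1.89, 2.28 and 1.42 CPM in shRNA livers and 3.97, 4.93, 8.76, 8.26 and 3.91 CPM in shRNA+BBR livers. The shRNA+BBR libraries lay above all shRNA libraries, whereas the Vec libraries overlapped the Vec+BBR libraries. Its interaction was 2.31 ± 0.42 (adjusted p = 0.0277), from −0.80 in Vec livers (adjusted p = 0.0684) and 1.5 in shRNA livers (adjusted p = 0.00489).

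Tk1, the thymidine kinase of S phase (ENSMUSG00000025574, chr11:117815526-117826092, minus strand), was 21.8, 29.4, 17.0, 18.4 and 17.1 CPM in Vec livers and 7.48, 6.85, 7.56, 5.09 and 6.59 CPM in Vec+BBR livers. It was 8.27, 11.1, 12, 11.3 and 10.2 CPM in shRNA livers and 8.97, 8.20, 11.2, 11.9 and 7.63 CPM in shRNA+BBR livers. All Vec libraries lay above all others, and the shRNA groups overlapped. Its interaction was 1.48 ± 0.23 (adjusted p = 0.0108), from −1.62 in Vec livers (adjusted p = 7.94e-06) and −0.14 in shRNA livers (adjusted p = 0.563).

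Pcna, the sliding clamp of DNA polymerase, had an interaction of 0.68 ± 0.19 (adjusted p = 0.102), and Rfc5, a subunit of the clamp loader, one of 0.82 ± 0.24 (adjusted p = 0.105). Both fell with BBR in Vec livers (Pcna −0.42, adjusted p = 0.039, and Rfc5 −0.62, adjusted p = 0.0153), with estimates of 0.25 and 0.20 in shRNA livers that did not pass. Gins3, of the replicative helicase complex, had an interaction of 1.42 ± 0.43 (adjusted p = 0.111) and rose in shRNA livers (1.23, adjusted p = 0.0154). None of Pcna, Rfc5 or Gins3 passed the adjusted threshold for the interaction.

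Among the mitotic genes, Spc24, a kinetochore subunit (1.26 ± 0.27), and Stmn1, a microtubule destabiliser (1.17 ± 0.25), each had an adjusted p of 0.0537. Birc5, the survivin subunit of the chromosomal passenger complex, had an interaction of 2.46 ± 0.61 (adjusted p = 0.0821) at mean levels of only 1.03, 0.524, 0.462 and 1.28 CPM in Vec, Vec+BBR, shRNA and shRNA+BBR livers. Pttg1, the securin that guards sister chromatids, was the most abundant member by counts, and its interaction was 0.21 ± 0.16 (adjusted p = 0.471). Many mitotic genes were near the limit of detection: 20 of the 64 listed genes did not pass the low-count filter, and a gene that passes only through its high group is bound to differ. With no filter, all 64 were tested and their median was 1.6, with 35 higher and 0 lower. With only the 11 members that had a mean of at least 50 counts, the median was 0.75, with 6 higher and 0 lower.

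The level of the mitotic list, its mean log2 CPM, was 0.35, 0.13, 1.39, 0.11 and 0.96 in the Vec libraries and 0.05, 0.57, 0.21, −0.28 and −0.05 in the Vec+BBR libraries. It was 0.37, 0.39, 0.27, 0.11 and −0.43 in the shRNA libraries and 0.54, 0.76, 1.36, 1.52 and 0.16 in the shRNA+BBR libraries. Replicates 3 and 5 of Vec and replicates 3 and 4 of shRNA+BBR were the highest libraries, and the ranges of the 4 groups overlapped. These replicates 3 and 5 of Vec also stood apart in lipid programmes. The mean log2 CPM of the typical PPARγ targets was 4.9 and 4.21 in them and 2.59 to 3.03 in the other Vec libraries, and that of fatty acid synthesis genes was 8.02 and 7.46 against 6.05 to 6.43. The high replicates 3 and 4 of shRNA+BBR were among the 3 with the highest shares of the 10 most abundant genes. The part of these differences in the cell cycle result was not tested. Leaving out any single library kept the median of the mitotic list between 1.08 and 1.61 and that of the replication list between 0.55 and 0.78. The count of higher replication genes depended on single libraries: it was 17 without replicate 3 of Vec and 18 without replicate 4 of shRNA+BBR. Lymphocyte markers, whose levels are given with the interferon genes, had interactions of the same sign, and their part in the cell cycle result was not tested.

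For regulators of cell cycle entry, the median interaction of 18 tested members was 0.13, with 5 higher and 0 lower at an unadjusted p under 0.05. The higher count was 2 without replicate 3 of Vec+BBR and 3 without replicate 4 or 5 of shRNA or replicate 3 or 4 of shRNA+BBR, and 2 were lower without replicate 1 of shRNA+BBR. Ccnd3, cyclin D3 (ENSMUSG00000034165, chr17:47505051-47599691, plus strand), was 53.5, 59.8, 41.1, 42.8 and 32.8 CPM in Vec livers and 36.0, 31.8, 30.6, 30.5 and 31.0 CPM in Vec+BBR livers. It was 17.7, 27.6, 23.2, 19.5 and 23 CPM in shRNA livers and 31.5, 33.1, 29.6, 25.7 and 31.0 CPM in shRNA+BBR livers. BBR lowered Ccnd3 in Vec livers (−0.52, adjusted p = 0.0118) and raised it in shRNA livers (0.44, adjusted p = 0.0328), with an overlap in both pairs of groups. The interaction was 0.97 ± 0.19 (adjusted p = 0.0406). With the length offset described further on, the interaction of Ccnd3 had an adjusted p of 0.0518. Cdkn2c, an inhibitor of CDK4 and CDK6, had an interaction of 0.81 ± 0.20 (adjusted p = 0.0796), Cdk6 itself 0.34 ± 0.14 (adjusted p = 0.21) and Cdk2 0.42 ± 0.18 (adjusted p = 0.227). The abundant members Cdkn1a, the p21 inhibitor (−0.48 ± 0.47, adjusted p = 0.595), and Cdk4 (0.20 ± 0.13, adjusted p = 0.409) did not pass at either threshold.

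Promoters of the mitotic genes were searched for the cell cycle genes homology region, TTTGAA, to which the DREAM and MuvB complexes bind. A RefSeq window from 250 bases before to 50 after the start was found for 35 of the 44 tested members, and 24 of them (68.6%) held the letters on either strand, beside 12.1% of 9810 windows of tested genes. The CCAAT letters stood in 26 of the 35 (74.3%), beside 38.8%. The letters of an E2F site core, TTCCCGCC, stood in 7 of 40 windows of replication genes (17.5%), beside 4.07%. Exact letters of a PPAR-RXR direct repeat stood in 0.0408% of all windows. They stood in 0 of 9 windows of typical PPARγ targets and 0 of 27 of typical PPARα targets. Each motif was searched on both strands and counted whether or not it overlapped another. The stretches below belong to the 3 mitotic genes with the smallest interaction p among those with a match before the start, read 5′ to 3′ in the direction of the gene, with the matches of TTTGAA or its reverse complement in capitals. They are Cdk1 (chr10:69352939-69353038, minus strand), Ccnb2, cyclin B2 (chr9:70421667-70421766, minus strand), and Top2a, topoisomerase II (chr11:99024190-99024289, minus strand), in GRCm38.p6.
Cdk1: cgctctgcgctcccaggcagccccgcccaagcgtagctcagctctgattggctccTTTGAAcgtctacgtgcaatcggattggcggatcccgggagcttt
Ccnb2: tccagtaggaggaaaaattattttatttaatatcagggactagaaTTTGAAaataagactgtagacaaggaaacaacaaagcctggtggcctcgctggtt
Top2a: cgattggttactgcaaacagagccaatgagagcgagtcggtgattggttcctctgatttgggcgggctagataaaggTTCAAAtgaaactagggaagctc
A match describes letters in these windows and not a bound site. Here and below, motif shares describe the lists and were not set against the interaction. The interactions of Ccnb2 and Top2a were 2.59 ± 0.68 (adjusted p = 0.0974) and 2.55 ± 0.70 (adjusted p = 0.102).

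**Figure D2:**
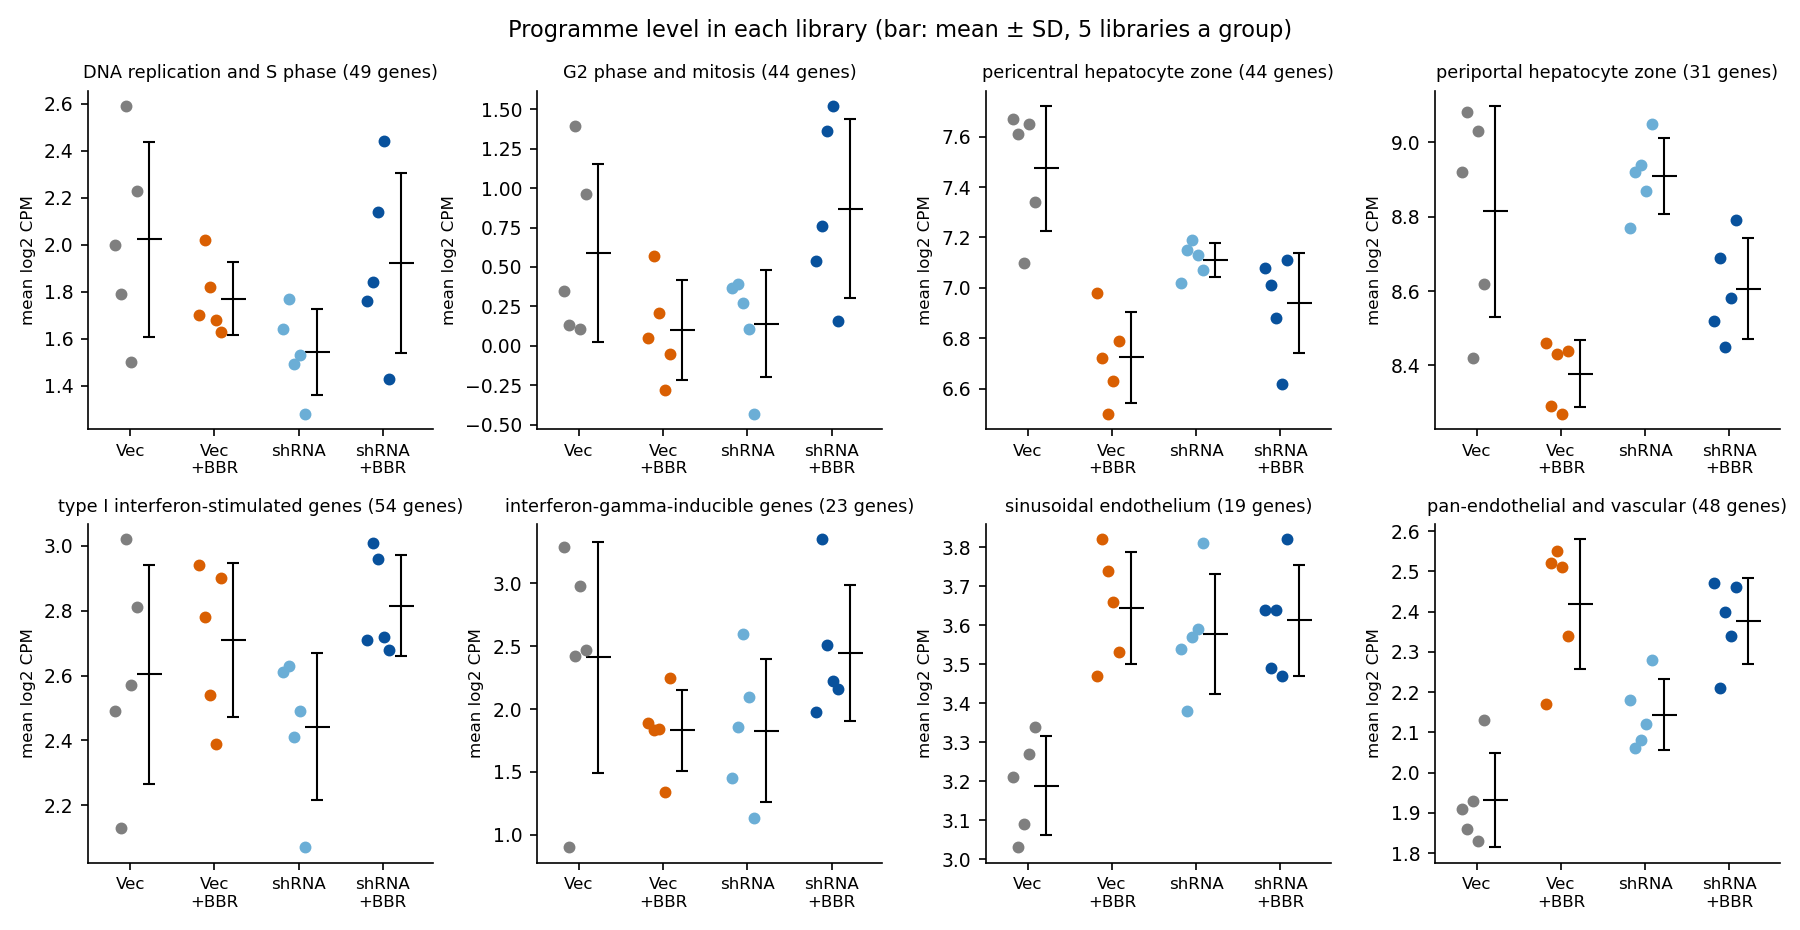
Mean log2 CPM of the tested members of 8 lists, 1 point per library, with a bar for the mean ± SD of 5 libraries, and a separate axis for each list. The Vec group had the highest mean of the pericentral list, 7.47, and its 5 libraries the lowest levels of the sinusoidal list, and shRNA+BBR had the highest mean of the mitotic list, 0.87.

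Of 44 tested pericentral genes, 28 fell and 3 rose with BBR in Vec livers at an adjusted p under 0.05. In shRNA livers 7 fell and 6 rose. The median response was −0.63 in Vec livers and −0.11 in shRNA livers. The median interaction was 0.58, with 22 members higher and 0 lower at an unadjusted p under 0.05. The mean log2 CPM of the list was 7.67, 7.61, 7.10, 7.65 and 7.34 in Vec and 6.98, 6.72, 6.50, 6.63 and 6.79 in Vec+BBR libraries. It was 7.02, 7.15, 7.19, 7.13 and 7.07 in shRNA and 7.08, 7.01, 6.88, 6.62 and 7.11 in shRNA+BBR libraries. All Vec libraries lay above all Vec+BBR libraries, and the shRNA libraries, which overlapped those of shRNA+BBR, lay between the means of the Vec groups.

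Tbx3, the transcription factor (ENSMUSG00000018604, chr5:119670669-119684724, plus strand), was 16.6, 17.7, 14.3, 18.9 and 16.1 CPM in Vec and 12.9, 12.5, 8.90, 12.4 and 13.4 CPM in Vec+BBR livers. It was 10.2, 11.8, 14.1, 11.6 and 10.1 CPM in shRNA and 13.6, 15.5, 16.0, 15.9 and 14.6 CPM in shRNA+BBR livers. BBR lowered Tbx3 in Vec livers with no overlap (−0.47, adjusted p = 0.00713) and raised it in shRNA livers (0.38, adjusted p = 0.0267), where the groups overlapped by 1 library each. The interaction was 0.86 ± 0.16 (adjusted p = 0.0292). With the replicate number as a block, Tbx3 did not pass (adjusted p = 0.0502).

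Rhbg, an ammonium transporter of the cells around the central vein (ENSMUSG00000104445, chr3:88242874-88254709, minus strand), was 58.1, 54.5, 31.2, 36.8 and 40.0 CPM in Vec and 24.4, 17.0, 12.5, 14.7 and 22.5 CPM in Vec+BBR livers. It was 20.2, 29.8, 21.6, 19.5 and 17.8 CPM in shRNA and 29.8, 25.5, 19.7, 14.3 and 28.7 CPM in shRNA+BBR livers. BBR lowered Rhbg in Vec livers (−1.27, adjusted p = 0.00087), while the shRNA groups overlapped at a level near that of Vec+BBR (0.12, adjusted p = 0.736). Its interaction of 1.39 ± 0.31 did not pass the adjusted threshold (adjusted p = 0.0584).

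Lect2, a secreted target of β-catenin, fell by 1.07 in Vec livers (adjusted p = 0.000557), with 0.00 in shRNA livers and an interaction of 1.07 ± 0.24 (adjusted p = 0.0649). Cyp2e1, the abundant pericentral cytochrome, was at mean levels of 9450, 5430, 4280 and 4290 CPM in Vec, Vec+BBR, shRNA and shRNA+BBR livers, with an interaction of 0.80 ± 0.24 (adjusted p = 0.116). Gstm1, a glutathione transferase that is also abundant by counts, had an interaction of −0.10 ± 0.22 (adjusted p = 0.828). Glul, the glutamine synthetase of the innermost pericentral cells, which was chosen here after its values were seen, was at mean levels of 901, 679, 577 and 644 CPM in the same order, with an interaction of 0.57 ± 0.16 (adjusted p = 0.102). Axin2 and Lgr5, general targets of Wnt signalling chosen likewise, had interactions of 0.15 (adjusted p = 0.805) and 0.40 (adjusted p = 0.655). In all of Rhbg, Lect2, Cyp2e1 and Glul, the Vec mean was the highest of the 4 group means. Other members fell under both vectors: in shRNA livers 7 fell and 6 rose. Of those that fell, Cyp2c29 and Cyp2c50 were also chosen after their values were seen. Cyp2c29 shifted by −1.61 in Vec and −1.05 in shRNA livers (interaction 0.55 ± 0.35, adjusted p = 0.389). Cyp2c50 shifted by −2.51 and −1.27 (interaction 1.24 ± 0.35, adjusted p = 0.104).

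Periportal genes that passed the test fell with BBR under both vectors, with 1 exception in Vec livers. Of 31 members, 14 fell and 1 rose in Vec livers and 7 fell and 0 rose in shRNA livers, with median responses of −0.54 and −0.29. The median interaction was 0.24, with 10 members higher and 3 lower at an unadjusted p under 0.05. Without replicate 3 of Vec the median was 0.43, and the higher count was 6 without replicate 1 of shRNA. Hsd17b13, a lipid droplet dehydrogenase, rose with BBR in Vec livers (0.98, adjusted p = 5.69e-05) and had an interaction of −0.72 ± 0.17 (adjusted p = 0.0694). Gldc, of the glycine cleavage system, had an interaction of −0.60 ± 0.17 (adjusted p = 0.102). Nags, which makes the activator of the urea cycle, had one of 0.52 ± 0.15 (adjusted p = 0.107), and Fbp1, of gluconeogenesis, one of 0.59 ± 0.19 (adjusted p = 0.121). The abundant Alb and Trf, which encode albumin and transferrin, had estimates of 0.15 ± 0.16 and −0.24 ± 0.15 that did not pass (Alb, adjusted p = 0.637 and Trf, adjusted p = 0.376). No periportal member passed the adjusted threshold. The interaction was not compared by a test between the 2 zones.

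**Figure D3:**
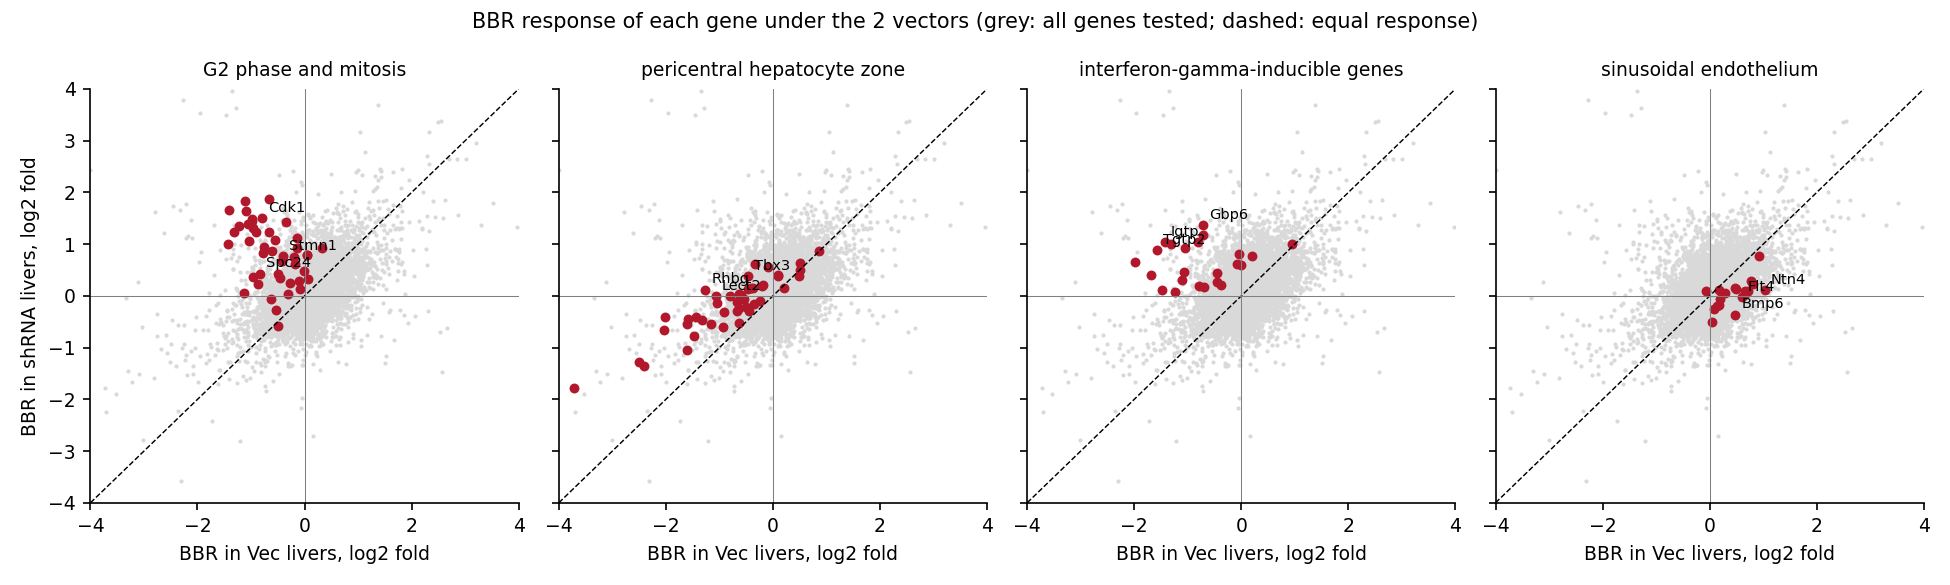
Log2 fold change by BBR in Vec livers (horizontal) and in shRNA livers (vertical), with all tested genes in grey, list members in red and equal response as a dashed line. The medians of mitotic genes were −0.62 in Vec and 0.85 in shRNA livers and those of interferon-γ-inducible genes −0.79 and 0.62. At an adjusted p under 0.05, 28 of 44 pericentral genes fell in Vec livers. By estimate alone, 18 of 19 sinusoidal genes lay below the dashed line. A further 17 genes lie outside the axes.

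Interferon-γ-inducible genes had a median interaction of 1.41 over 23 tested genes, of which 17 were higher and 0 lower at an unadjusted p under 0.05. With no low-count filter the median was 1.52 over 27 genes, with 18 higher and 0 lower. BBR shifted them by a median of −0.79 in Vec livers, where 8 fell and 0 rose, and by 0.62 in shRNA livers, where 2 rose and 0 fell. The 8 exceeded the share of all genes lower in Vec livers, 7.88%. The 2 were near the share of all genes higher in shRNA livers, 8.37%. No interferon-γ-inducible gene passed the adjusted threshold for the interaction. Type I interferon-stimulated genes had a median of 0.32 over 54 genes, 13 higher and 3 lower. This median was 0.16 without replicate 3 of Vec, 0.18 without replicate 5 of Vec and 0.12 over the 39 members with a mean of at least 50 counts. Ligands, receptors and sensors, the inputs of the pathway, had a median of −0.07 over 18 genes, 1 higher and 3 lower.

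Gbp2, a guanylate-binding protein (ENSMUSG00000028270, chr3:142620602-142638008, plus strand), was 27.4, 2.44, 13.2, 22 and 15.7 CPM in Vec and 4.87, 5.55, 5.57, 3.39 and 5.70 CPM in Vec+BBR livers. It was 4.66, 6.53, 18.2, 10.1 and 3.21 CPM in shRNA and 9.74, 17.7, 10.2, 9.90 and 9.24 CPM in shRNA+BBR livers. Replicate 2 of Vec was the lowest of all 20 libraries, while the other 4 Vec libraries lay above all Vec+BBR libraries. The interaction was 2.10 ± 0.63 (adjusted p = 0.108).

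Igtp, an immunity-related GTPase (ENSMUSG00000078853, chr11:58199556-58207591, plus strand), was 142, 26.4, 57.0, 95.4 and 63.7 CPM in Vec and 29.3, 22.7, 22.8, 15.2 and 52.5 CPM in Vec+BBR livers. It was 26.4, 35.7, 57.3, 42.6 and 19.0 CPM in shRNA and 37.8, 202, 54.9, 36.2 and 39.5 CPM in shRNA+BBR livers. The shRNA+BBR mean of 74.1 CPM was drawn up by replicate 2, the library with the highest mitochondrial share (16.22%), and the other 4 libraries overlapped those of shRNA. The interaction was 2.47 ± 0.69 (adjusted p = 0.102).

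Gbp6 (2.08 ± 0.54, adjusted p = 0.0967) and Tgtp2, a further GTPase with the near-identical copy Tgtp1 (2.45 ± 0.71, adjusted p = 0.105), followed. The abundant GTPases Irgm1 and Iigp1 had interactions of 0.73 ± 0.30 (adjusted p = 0.21) and 0.60 ± 0.40 (adjusted p = 0.423). Among the type I genes, Ifitm3, which blocks viral entry, fell in Vec livers (−0.89, adjusted p = 0.0016) and had an interaction of 0.96 ± 0.23 (adjusted p = 0.0796). Its neighbour Ifitm2, of no list, passed with 0.70 ± 0.12 (adjusted p = 0.0237), and near-identical copies of this family can share reads. With the length offset described further on, the interaction of Ifitm2 did not pass (0.40, adjusted p = 0.125). Bst2, which tethers virions (0.85 ± 0.25, adjusted p = 0.105), Zbp1, a nucleic acid sensor (1.65 ± 0.50, adjusted p = 0.115), and Isg15, a ubiquitin-like modifier (0.96 ± 0.31, adjusted p = 0.13), had adjusted p-values of 0.105 to 0.130. Lgals3bp, abundant by counts, had an estimate of −0.16 ± 0.21 (adjusted p = 0.688). Of the inputs, Jak1, the kinase shared by interferon receptors, had an interaction of −0.44 ± 0.12 (adjusted p = 0.102), Ifngr2, a chain of the interferon-γ receptor, −0.29 ± 0.12 (adjusted p = 0.207), Myd88 0.30 ± 0.12 (adjusted p = 0.183) and Ticam1 −0.39 ± 0.17 (adjusted p = 0.227), the last 2 being adaptors of Toll-like receptors. Mavs, the adaptor of RNA sensing, had an estimate of −0.17 ± 0.14 (adjusted p = 0.512).

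The interferon-stimulated response element, a pair of GAAA words with any 2 bases between them, was searched on both strands. It stood in 10 of 15 windows of the interferon-γ-inducible genes (66.7%) and 17 of 41 windows of the type I genes (41.5%), beside 3.20% of all 9810 windows. The stretches of the 3 interferon-γ-inducible genes with the smallest interaction p and a match before the start show it in capitals, where overlapping matches of either strand run together. They are Igtp (chr11:58199456-58199555, plus strand), Tgtp2 (chr11:49064228-49064327, minus strand) and Gbp3, another guanylate-binding protein (chr3:142559926-142560025, plus strand), in GRCm38.p6.
Igtp: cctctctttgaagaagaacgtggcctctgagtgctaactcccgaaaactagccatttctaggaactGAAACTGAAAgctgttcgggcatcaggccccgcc
Tgtp2: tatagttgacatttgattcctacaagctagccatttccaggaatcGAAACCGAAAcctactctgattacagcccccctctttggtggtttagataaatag
Gbp3: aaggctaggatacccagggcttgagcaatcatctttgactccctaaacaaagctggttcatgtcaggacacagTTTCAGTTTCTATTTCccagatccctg
The interaction of Gbp3 was 1.41 ± 0.44 (adjusted p = 0.121).

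Markers of T, NK and B lymphocytes moved with the interferon-γ-inducible genes. Their median interaction was 2.89 over the 16 members that passed the low-count filter, with 12 higher and 0 lower. With no filter it was 2.07 over all 28, with 16 higher and 0 lower. All 28 listed markers were detected in some library, and their summed level ranged from 12.3 to 40.9 CPM in Vec, 10.4 to 14.8 in Vec+BBR, 13.7 to 25.5 in shRNA and 21 to 75.9 in shRNA+BBR livers. Ccl5, a chemokine of T and NK cells, was 6.66, 0.193, 7.99, 3.9 and 2.87 CPM in Vec and 0.941, 0.717, 1.28, 0.714 and 0.706 CPM in Vec+BBR livers. It was 0.548, 1.34, 1.97, 2.28 and 0.333 CPM in shRNA and 2.37, 5.30, 7.34, 4.20 and 1.37 CPM in shRNA+BBR livers. As with Gbp2, replicate 2 of Vec stood below all Vec+BBR libraries and the other 4 Vec libraries above them. The interaction of Ccl5 was 3.98 ± 0.83 (adjusted p = 0.053) and that of Nkg7, a granule protein of cytotoxic cells, 4.00 ± 0.84 (adjusted p = 0.053). In bulk liver, fewer cells of a type and less RNA per cell cannot be told apart, and the part of lymphocyte markers in the interferon result was not tested. Without replicate 2 of Vec, or any other single library, the median of the interferon-γ-inducible list stayed between 1.05 and 1.62, with 15 to 18 members higher. The lowest values, 1.05 and 15, came without replicate 2 of shRNA+BBR.

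Antigen presentation showed a median interaction of 0.62 over 25 genes, 13 higher and 1 lower at an unadjusted p under 0.05. These transcripts were shorter than the median gene by −0.85 on the log2 scale. With the length offset described further on, the median was 0.44. The mean summed level of the list rose with BBR under both vectors, from 4920 to 6250 CPM in Vec and from 4670 to 5520 CPM in shRNA livers. Psmb8, a catalytic subunit of the immunoproteasome, fell in Vec livers (−1.19, adjusted p = 0.00284) with an interaction of 1.5 ± 0.34 (adjusted p = 0.0649). H2-DMb1, which loads peptides onto class II molecules, rose in shRNA livers (1.25, adjusted p = 0.00567) with 1.47 ± 0.35 (adjusted p = 0.0796). Reads of the H2 genes can be split between near-identical copies and haplotypes. Kupffer cell and macrophage markers had a median of 0.37 over 26 genes, 5 higher and 0 lower. The higher count was 9 without replicate 2 of Vec and as low as 3 without other single libraries or with the length offset. Their summed levels were 338 to 752 CPM in Vec, 503 to 742 in Vec+BBR, 421 to 591 in shRNA and 542 to 725 in shRNA+BBR livers. Fcer1g, an Fc receptor chain, had 1.08 ± 0.32 (adjusted p = 0.108), and Marco, a scavenger receptor, had 2.42 ± 0.84 (adjusted p = 0.15) after a fall in Vec livers (−3.03, adjusted p = 0.00287). Across the 26 Kupffer and macrophage markers, BBR raised 3 and lowered 2 in Vec livers (median −0.01). It raised 8 and lowered 2 in shRNA livers (median 0.48).

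**Figure D4:**
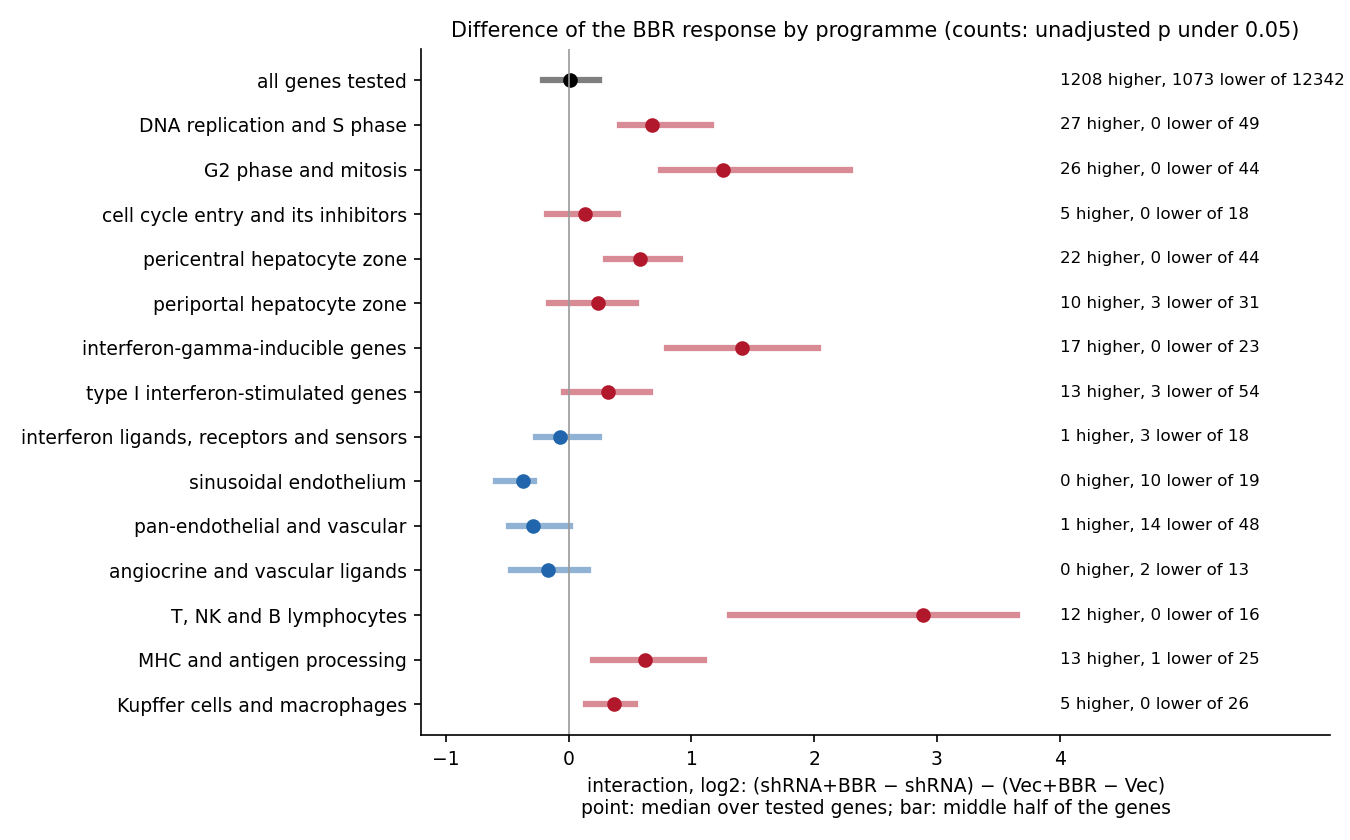
Interaction on the log2 scale for each list, with the median over tested genes as a point and the interquartile range as a bar, and the counts at an unadjusted p under 0.05 at the right. Lymphocyte markers and interferon-γ-inducible genes had medians of 2.89 and 1.41, and the endothelial lists had medians of −0.37 and −0.29, beside 0.01 for all genes.

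Endothelial genes had interactions mainly below 0. BBR raised 11 of 19 sinusoidal genes and lowered 0 in Vec livers (median 0.48), and raised 1 and lowered 1 in shRNA livers (median 0.09). The median interaction was −0.37, 18 of the 19 estimates were below 0, and 10 were lower and 0 higher at an unadjusted p under 0.05. Of 48 tested pan-endothelial and vascular genes, BBR raised 21 and lowered 0 in Vec livers (median 0.45) and raised 7 and lowered 1 in shRNA livers (median 0.26). Their median interaction was −0.29, with 14 lower and 1 higher. The lower count rested on single libraries and was 6 without replicate 2 of shRNA+BBR, and the median was −0.18 without replicate 2 of Vec+BBR. No endothelial gene passed the adjusted threshold. The mean log2 CPM of the sinusoidal list was 3.21, 3.03, 3.09, 3.27 and 3.34 in Vec and 3.47, 3.82, 3.74, 3.66 and 3.53 in Vec+BBR libraries. It was 3.54, 3.38, 3.57, 3.59 and 3.81 in shRNA and 3.64, 3.49, 3.64, 3.47 and 3.82 in shRNA+BBR libraries. The 5 Vec libraries were thus below all 15 others, which overlapped.

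Stab1, the scavenger receptor stabilin-1 (ENSMUSG00000042286, chr14:31139013-31168641, minus strand), was 11, 10.3, 10.3, 12.4 and 14.3 CPM in Vec and 13.6, 23.6, 18.5, 19.6 and 18.0 CPM in Vec+BBR livers. It was 16.5, 12.7, 12.4, 14.5 and 21.4 CPM in shRNA and 19.1, 14.5, 15, 14 and 18.5 CPM in shRNA+BBR livers. BBR raised Stab1 in Vec livers (0.68, adjusted p = 0.00624), with an overlap of 1 library in each group, and the shRNA groups overlapped (0.06, adjusted p = 0.799). The interaction was −0.61 ± 0.22 (adjusted p = 0.16).

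Kdr, the VEGF receptor 2 (ENSMUSG00000062960, chr5:75932827-75978458, minus strand), was 13.2, 11.7, 12.8, 14.1 and 15.1 CPM in Vec and 15.3, 22.4, 16.5, 18.2 and 13.8 CPM in Vec+BBR livers. It was 20.2, 15.9, 19.0, 20.1 and 22.8 CPM in shRNA and 15.2, 13.1, 15.8, 12.3 and 17.2 CPM in shRNA+BBR livers. BBR lowered Kdr in shRNA livers (−0.42, adjusted p = 0.0297), and in Vec livers its estimate was 0.36 (adjusted p = 0.0542). The groups of each pair overlapped. The interaction was −0.78 ± 0.18 (adjusted p = 0.0649).

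Among sinusoidal members, Ntn4, a netrin (−0.92 ± 0.25, adjusted p = 0.0974), Bmp6, which tells hepatocytes to make hepcidin (−0.84 ± 0.24, adjusted p = 0.105), and Flt4, the VEGF receptor 3 (−0.62 ± 0.21, adjusted p = 0.135), had the smallest p. Fcgr2b, an inhibitory Fc receptor (−0.37 ± 0.17, adjusted p = 0.251), and Ehd3, an endocytic ATPase (−0.24 ± 0.19), were abundant by counts, and only Fcgr2b had an unadjusted p under 0.05. Adgrl4 (−0.81 ± 0.24, adjusted p = 0.107) and Podxl, a sialomucin (−1.02 ± 0.32, adjusted p = 0.121), were vascular genes raised by BBR in Vec livers (0.82, adjusted p = 0.00309, and 0.86, adjusted p = 0.0148). Of 13 vascular genes with estimates above 0, Plvap, which forms the diaphragms of endothelial pores, was the 1 with an unadjusted p under 0.05 (0.43 ± 0.11, adjusted p = 0.0886). Its mean levels were 55.4, 55.5, 38.7 and 52.4 CPM in Vec, Vec+BBR, shRNA and shRNA+BBR livers. Eng, the TGF-β co-receptor endoglin, had an estimate of 0.03 ± 0.12 (adjusted p = 0.909). Among 13 angiocrine and vascular ligands the median was −0.17 (−0.27 to −0.12 when 1 library was left out), with 2 lower and 0 higher: Bmp6 and the neuregulin Nrg1 (−1.43 ± 0.60, adjusted p = 0.217). The growth factor Hgf (−0.97 ± 0.49, adjusted p = 0.289), Wnt2 (0.55 ± 0.30, adjusted p = 0.318), Vegfa (−0.17 ± 0.12, adjusted p = 0.436) and Vegfb (0.16 ± 0.35, adjusted p = 0.837) did not pass at either threshold.

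Transcript length moved with the interaction and is therefore set beside these results. Length was taken as each gene's summed counts divided by its summed FPKM values. Across 12342 genes the interaction had a Spearman correlation of −0.38 with this length, given as a description. With the GC content of the longest annotated transcript it was 0.07 across 12337 genes. The median interaction was 0.24, 0.08, −0.01, −0.08 and −0.17 from the shortest to the longest quintile of genes. The response to BBR correlated with length at 0.20 in Vec livers and −0.20 in shRNA livers, and single libraries of each group stood on both sides of the mean library. The endothelial lists held longer transcripts than the median gene, by 0.45 and 0.26 on the log2 scale, and the pericentral list shorter ones, by −0.43. With an offset for length in each library, an alternative chosen after seeing the data, the medians were 1.25 for mitotic, 0.64 for replication, 0.51 for pericentral, 1.39 for interferon-γ-inducible, 0.28 for type I interferon-stimulated, −0.39 for sinusoidal and −0.21 for vascular genes. The sinusoidal list had 10 lower and 0 higher members in this fit too, while the vascular list had 9 lower in place of 14. Among lists of short transcripts, the nuclear-encoded respiratory chain had medians of 0.25 without and −0.01 with the offset, and cytosolic ribosomal proteins 0.08 and −0.14. The part of length in the remaining differences was not tested.

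**Figure D5:**
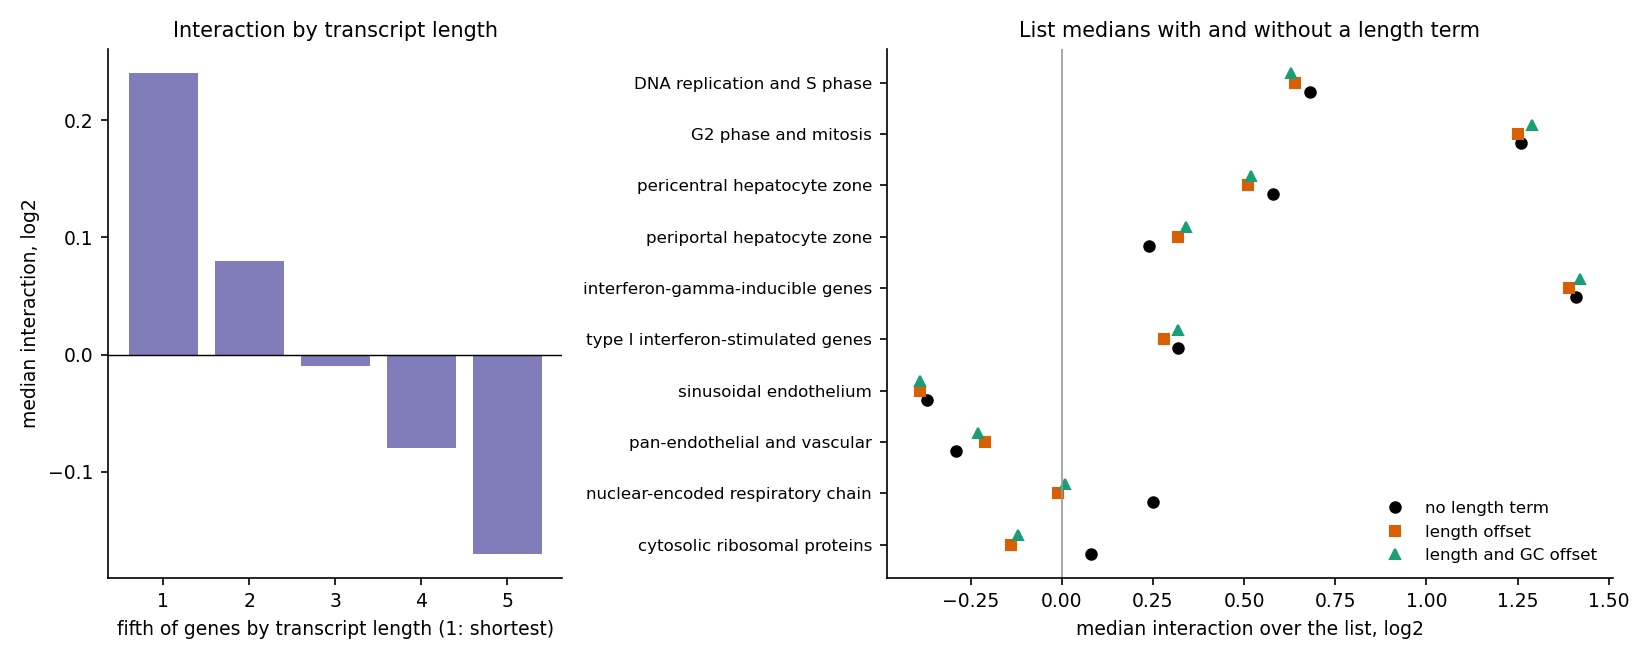
Left, bars of the median interaction (log2) in each quintile of genes by transcript length, from 0.24 in the shortest to −0.17 in the longest. Right, list medians without a length term and with offsets for length or for length and GC content, where the mitotic, pericentral, interferon-γ and sinusoidal medians keep their sign and the respiratory chain falls from 0.25 to about 0.

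Cholangiocyte markers had a median of −0.08 over 13 genes with 5 lower and 0 higher, among them Bicc1 (−1.05 ± 0.40, adjusted p = 0.183) and Pkhd1 (−0.75 ± 0.30, adjusted p = 0.193). Their summed level was 44.0 to 65.3 CPM in Vec, 79.3 to 151 in Vec+BBR, 56.1 to 62.9 in shRNA and 66.8 to 120 in shRNA+BBR livers, and their part in the vascular result was not tested. Stellate cell and fibroblast markers had a median of 0.06 over 25 genes, with 3 higher and 3 lower. NRF2 targets, which defend against electrophiles, had a median of −0.21 over 19 genes with 6 lower and 0 higher. Of these, Gclc, of glutathione synthesis, rose in Vec livers (0.65, adjusted p = 0.000979) with an interaction of −0.64 ± 0.16 (adjusted p = 0.0875). Gpx2, a glutathione peroxidase, had −4.06 ± 0.84 (adjusted p = 0.053) at mean levels of only 0.0492, 0.335, 2.65 and 0.945 CPM. The Vec level of Gpx2 lies below that of 3 counts in a library (0.12 to 0.172 CPM), so its fitted value depends on the prior count. Male-biased liver genes had a median of 0.56 over 17 genes with 5 higher and 0 lower, led by Cyp4a12a (1.35 ± 0.41, adjusted p = 0.112), and acute phase proteins had a median of 0.26 over 22 genes with 7 higher and 0 lower, led by Saa2 (1.79 ± 0.53, adjusted p = 0.108). Acute phase transcripts were shorter than the median gene by −0.82 on the log2 scale, and 4 were higher and 0 lower with the length offset and 4 higher and 1 lower with length and GC. Of the NRF2 targets, 4 were lower with either offset. Targets of p53 had a median of −0.25 over 24 genes with 4 lower and 0 higher.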

How the data were processed

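Bulk poly(A) RNA-seq of 20 livers was used. Per the labels the build was mm10; the aligner, counter and strand setting are not given in the sources used here. The deposited files hold, per gene, the authors' expected counts and the authors' FPKM values, the latter used only to derive gene length. Expected counts (91.9% to 93.3% whole within 0.001) were rounded. Genes were kept with filterByExpr (12342 of 22298), scaled by TMM and fitted with edgeR 4.0.16 (R 4.3.3), using estimateDisp, glmQLFit and the quasi-likelihood test glmQLFTest on 4 group means without covariates. Every p-value is two-sided from this test, and adjusted p is Benjamini-Hochberg over all tested genes, with a threshold of 0.05. No test was run on lists. List levels are means of log2 CPM with a prior count of 1. Standard errors cover 5 libraries a group, and counting error alone is small at these depths except for genes of a few CPM. Members and lists were chosen with earlier results of these data known. Named genes are Pparg, all genes past the adjusted threshold, the 4 smallest p and 2 highest levels of each main list and the 2 smallest p of each other list that is not given by counts alone; exceptions are marked, and 2 genes that the rule names are not reported here. Length is relative, each gene's counts summed over the libraries divided by its summed FPKM values. GC content comes from the longest GENCODE M21 transcript. Promoter windows come from RefSeq (GRCm38.p6) and hairpin sequences from the study's supplement. Alternatives were DESeq2 1.42.0 (test and size factors), no filter, a mean count of at least 50, robust moderation, a replicate block, each library left out, and, chosen after seeing the data, offsets for length and for length with GC. The fit was tested on simulated data.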

Additional observations from a re-analysis of the deposited data

Results flagged for a closer look

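The genes below differed between the vectors in their response to BBR by the test of the difference itself (edgeR, adjusted p under 0.05 over 12342 genes). Higher were Pkdcc (1.14), Tk1 (1.48), Nat8 (1.59), Ifitm2 (0.70), Cdk1 (2.31), Tbx3 (0.86), Sult2a8 (1.98), Ccnd3 (0.97) and Mup21 (1.73). Lower were Treh (−1.36), Golph3l (−0.84), Akap7 (−1.12), Krcc1 (−0.57), Arhgef7 (−0.84), Cdkl2 (−1.24), 5330417C22Rik (−2.64), Creb3l2 (−0.97) and Smoc2 (−1.92).

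Single libraries stood apart from the other 4 of their group in 8 of 116 sets of 5 values examined (the 11 main lists and these 18 genes in each group); chance flags about 1 in 20. In Vec+BBR, replicate 1 was highest for Nat8 (16.3 CPM, others 7.19 to 9.74), Ifitm2 (102 CPM, others 82.9 to 85.8) and Ccnd3 (36.0 CPM, others 30.5 to 31.8), and replicate 3 was lowest for Tbx3 (8.90 CPM, others 12.4 to 13.4). In shRNA, replicate 1 was lowest for Ifitm2 (99.8 CPM, others 109 to 111) and highest for Mup21 (2.92 CPM, others 1.5 to 1.81), and replicate 3 was lowest for Creb3l2 (11.4 CPM, others 13.9 to 14.5). In Vec, replicate 2 was lowest for Krcc1 (22.9 CPM, others 26.5 to 26.9).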

How the results depend on the processing

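No gene past the threshold reversed its direction. The number of genes past the adjusted threshold was the least stable value: 18 in the reported fit, 330 with the DESeq2 Wald test (183 higher and 147 lower), and 5 to 122 when 1 library was left out, lowest without replicate 4 of Vec+BBR and highest without replicate 4 of Vec. It was 97 without replicate 1 of Vec+BBR, 55 without replicate 5 of shRNA+BBR and 32 without replicate 5 of Vec. Pkdcc, Tk1, Treh and Golph3l stayed past it in all 28 alternatives, Cdk1 in 23, Tbx3 and Ifitm2 in 21 and Ccnd3 in 14. With a mean count of at least 50, the median was 0.75 for the mitotic list and −0.01 for the cell cycle entry list, as fewer low-count members were tested. For type I interferon-stimulated genes it was 0.12, and 0.16 to 0.47 when 1 library was left out. Leaving out 1 library moved the periportal median between 0.18 and 0.43. The lower vascular count ranged from 6 without replicate 2 of shRNA+BBR to 15, and was 7 without replicate 3 of Vec, replicate 2 or 3 of Vec+BBR or replicate 5 of shRNA. With the length offset 13 genes passed and with length and GC 21. At most 3 of 5 same-numbered pairs of any 2 groups correlated above 0.1. Differently numbered pairs were not compared, so these values cannot show whether same-numbered replicates pair. With the replicate number as a block, 21 genes passed, 1114 were higher and 1126 lower at an unadjusted p under 0.05, and Tbx3 (adjusted p = 0.0502), Smoc2, Cdkl2, Creb3l2 and Mup21 did not pass.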
